A study of Mus musculus with 24 samples.

Results

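The glutathione and NRF2 antioxidant genes described here are 35 listed mouse genes, taken as the rows of those genes in the count table of 53465 genes. The list names genes by their known role and was drawn up with earlier results of these data known. It holds the regulator Nfe2l2 (NRF2) with its inhibitor Keap1, enzymes of the NRF2 response, the enzymes that make and recycle glutathione and thioredoxin, the enzymes that remove peroxide and superoxide, glutathione transferases, and the metallothioneins Mt1 and Mt2. All 35 identifiers were found, and 33 of the genes had enough reads to be tested. Gsta1, with 4 reads over the 24 libraries, and Gsta2, with 30, were not tested.

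Libraries of poly(A) RNA came from cells of the stromal vascular fraction, the non-fat-cell part of white fat, grown and turned into adipocytes in culture with dexamethasone, isobutylmethylxanthine and insulin. The cells were taken from epididymal (eWAT) or inguinal (iWAT) fat. Knockout cultures (aKO) came from Senp2flox/flox; Adipoq Cre mice and control cultures (Cont) from Senp2flox/flox mice without the Cre, so both genotypes carry floxed Senp2. SENP2 is a protease that takes SUMO off proteins, and Adipoq-driven Cre acts in cells that express adiponectin, so other cells of an aKO culture keep the gene. Within each depot and genotype, cells received siRNA against Cebpb (siCEBPb), a transcription factor of early fat cell formation, or siNS, a name that the labels do not spell out. The 8 groups of depot, genotype and siRNA held 3 libraries each. The labels leave unsaid if a group's replicates are separate cultures or animals, so the p-values measure the spread between these samples, which may be technical.

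NRF2 is a transcription factor that KEAP1 marks for destruction in unstressed cells. When oxidants or electrophiles modify KEAP1, NRF2 builds up and binds antioxidant response elements beside genes such as Nqo1, Gclc, Gclm, Txnrd1, Srxn1 and many glutathione transferases. Glutathione is made by GCLC with GCLM and then GSS, is kept reduced by GSR, and is spent by peroxidases and transferases, which in fat cells deal with peroxides and the reactive aldehydes of oxidised lipid.

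Levels are given as CPM, read counts scaled to TMM-adjusted library size, and each log2 fold change has its standard error after ±, with the group named first over the other. Gene counts per library lay between 8435494 and 15388744 in 23 libraries, while iWAT aKO siNS replicate 2 held 603585 and had 93.3% of its reads unaligned. The listed genes took 0.314% of its gene counts, against 0.430% to 0.716% in the others, and Nqo1 and Gsta4 had 1 read each there. Most results that involve iWAT aKO siNS are therefore given with and without that library. So are the counts of called genes in the other comparisons, which share its estimate of spread. The siRNA target Cebpb fell in all 4 comparisons of siCEBPb with siNS, with log2 fold changes of -1.73 to -2.69. Senp2 reads did not check the genotype, since reads outside the floxed part are counted too; the gene averaged 47.6 ± 4.82 CPM in eWAT aKO siNS and 54.5 ± 2.35 CPM in eWAT Cont siNS (SD, n = 3 each). With siCEBPb it averaged 53.2 ± 2.55 CPM in eWAT aKO siCEBPb and 49.9 ± 0.91 CPM in eWAT Cont siCEBPb. The means in iWAT were 51.5 ± 5.11 CPM in iWAT aKO siNS and 51.0 ± 4.67 CPM in iWAT Cont siNS, and 53.2 ± 0.508 CPM in iWAT aKO siCEBPb and 50.8 ± 2.702 CPM in iWAT Cont siCEBPb. With all libraries the aKO mean was the lower one in eWAT siNS alone; without the shallow library the iWAT aKO siNS mean was 48.6 CPM (n = 2). Adipocyte markers were present, with Adipoq between 58.2 and 187 CPM in 23 libraries. Lep (0 to 2.17 CPM) and Slc2a4 (1.70 to 19.4 CPM) were low there. Collagen and macrophage genes were present too, with Col1a1 between 14979 and 20096 CPM and Cd68 between 12.2 and 161 CPM. In eWAT Cont siNS, 10 fibroblast and progenitor markers summed to 35448 to 36857 CPM, and 15 adipocyte markers to 2169.9 to 2897 CPM. In such bulk RNA, fewer cells of a type and less RNA per cell cannot be told apart.

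Promoter sequences are shown for 4 genes that fell with siCEBPb in aKO cultures of both depots, because each holds the C/EBP core TTGCNNAA, searched on both strands, in the window from 250 bases before to 50 bases after its start (RefSeq, GRCm38.p6). Capitals mark that core and the antioxidant response element core TGACNNNGC, as written or as the reverse complement; in these windows the matches do not overlap each other. The windows are chr8:94172368-94172667 (plus strand) for Mt2, chr1:21240335-21240634 (plus) for Gsta3, chr6:138140277-138140576 (plus) for Mgst1 and chr10:75797682-75797981 (minus) for Gstt1, each read along the gene's strand. The RefSeq starts differ from the gene starts of the GENCODE M21 annotation. They lie 853 bases inside the gene for Gstt1 and 211 bases inside it for Mgst1. They lie before it by 46 bases for Mt2 and 4 for Gsta3. A second RefSeq window of Mgst1, at a start further inside the gene, held 0 matches of either core.
Mt2: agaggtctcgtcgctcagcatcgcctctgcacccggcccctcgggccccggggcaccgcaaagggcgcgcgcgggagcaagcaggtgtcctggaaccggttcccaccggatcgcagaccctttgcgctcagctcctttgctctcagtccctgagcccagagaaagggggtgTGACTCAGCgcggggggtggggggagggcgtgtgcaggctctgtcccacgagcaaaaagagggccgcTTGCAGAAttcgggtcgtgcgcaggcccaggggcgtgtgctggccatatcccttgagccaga
Gsta3: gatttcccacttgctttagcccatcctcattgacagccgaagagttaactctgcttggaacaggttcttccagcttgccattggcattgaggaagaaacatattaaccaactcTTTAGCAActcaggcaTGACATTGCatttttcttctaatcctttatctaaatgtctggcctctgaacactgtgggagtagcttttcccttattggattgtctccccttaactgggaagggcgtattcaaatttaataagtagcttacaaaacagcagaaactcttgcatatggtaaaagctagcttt
Mgst1: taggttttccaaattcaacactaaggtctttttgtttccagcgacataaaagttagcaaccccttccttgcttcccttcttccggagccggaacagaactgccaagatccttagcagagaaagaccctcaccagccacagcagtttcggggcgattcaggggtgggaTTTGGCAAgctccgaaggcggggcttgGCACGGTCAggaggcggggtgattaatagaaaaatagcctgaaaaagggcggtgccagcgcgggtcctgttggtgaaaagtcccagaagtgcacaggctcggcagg
Gstt1: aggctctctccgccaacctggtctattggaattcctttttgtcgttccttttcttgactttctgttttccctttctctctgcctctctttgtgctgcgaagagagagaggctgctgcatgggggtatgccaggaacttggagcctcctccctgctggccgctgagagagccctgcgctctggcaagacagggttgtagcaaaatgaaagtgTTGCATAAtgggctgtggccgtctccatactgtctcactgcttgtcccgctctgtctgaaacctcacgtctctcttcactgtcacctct
Mt2, Gsta3 and Mgst1 carry both cores, and Gstt1 carries only the C/EBP core. In Mt2 the C/EBP core begins 12 bases before the RefSeq start and the antioxidant core 79 bases before it, which is 58 and 125 bases before the GENCODE start. Of the 35 genes, 28 had a window, and Gsta4, Hmox1, Gclc, Gsr, Prdx6, Sod3 and Gstt2 had none. The antioxidant core was present for 10 of those 28 (35.7%), against 14.0% of 27025 genes, and the C/EBP core for 5 of 28 (17.9%), against 12.2%. The genes with the antioxidant core were Gclm, Gsta3, Gstm5, Mgst1, Mt2, Nfe2l2, Prdx1, Sod1, Srxn1 and Txnrd1. Those with the C/EBP core were Gsta3, Gstm2, Gstt1, Mgst1 and Mt2. A match of letters is a description of the window and not a measured binding site.

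Per transcript length, the listed genes covered a wide range. As transcript abundance scaled to length (TPM), the highest medians over 23 libraries were those of Gpx3, the secreted glutathione peroxidase, at 2168, Mt2 at 1634, Mt1 at 680, Hmox1 at 621, Txn1 at 570 and Prdx1 at 478. The lowest tested medians were 4.05 TPM for Gstt2 and 5.73 TPM for Gsta3. The genes that varied most were Gsta4, with a highest library 12.0 times its lowest, Mt2 (5.45 times), Gsta3 (4.80), Nqo1 (4.73) and Mt1 (4.08). Gpx1, the cytosolic glutathione peroxidase, varied least, by 1.29 times. Nfe2l2 varied by 1.43 times and Keap1 by 1.38 times.

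**Figure D1:**
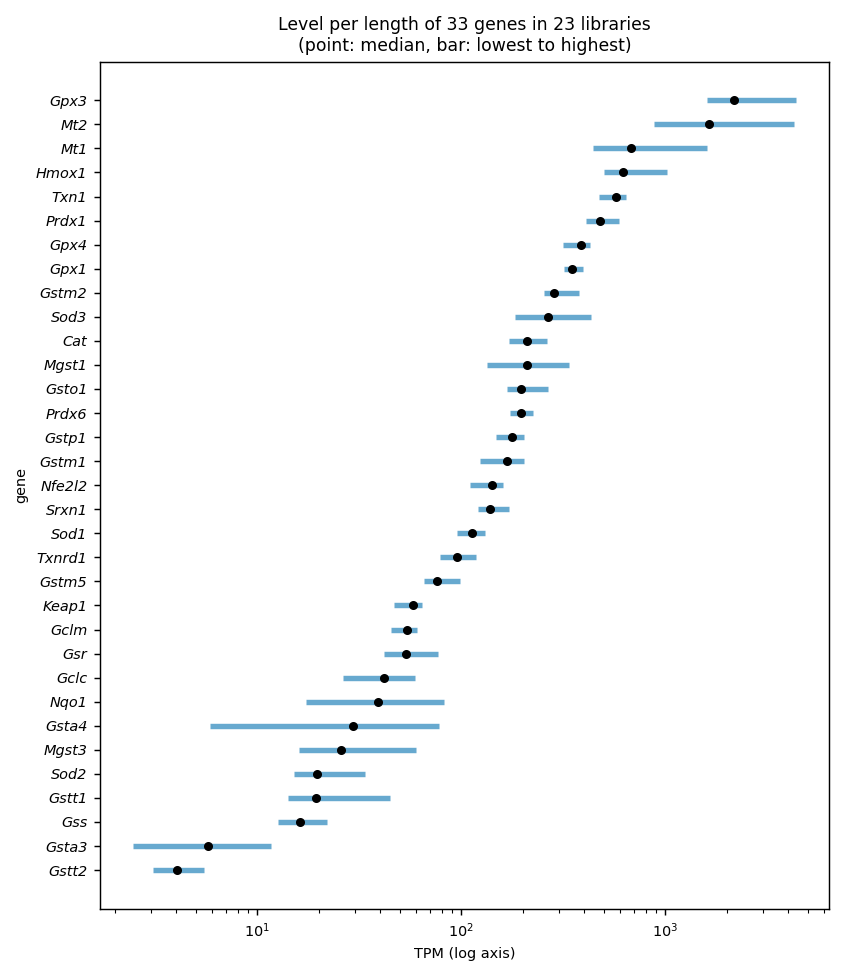
Level of each of the 33 tested genes in TPM on a log axis; points are medians and bars run from the lowest to the highest of 23 libraries, without iWAT aKO siNS replicate 2. Gpx3 and Mt2 stand highest with medians of 2168 and 1634 TPM, and Gsta4 has the longest bar.

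The RNA of neither Nfe2l2 nor Keap1 passed the test in any comparison over all 24 libraries. Nfe2l2 read 129.6, 150.3 and 144 CPM in eWAT aKO siNS and 147, 154 and 151 CPM in eWAT Cont siNS, and 148, 114 and 139 CPM in eWAT aKO siCEBPb. These groups overlapped. Keap1 read 81.9, 79.8 and 81.9 CPM in eWAT aKO siNS and 80.3, 80.5 and 82.5 CPM in eWAT Cont siNS. An antisense gene shares 10.9% of the exon bases of Keap1. Its count is therefore uncertain. The log2 fold change of Nfe2l2 was most negative in eWAT aKO against Cont with siCEBPb (-0.15 ± 0.097), and that of Keap1 among the genotype and siRNA comparisons was most negative in eWAT aKO with siCEBPb against siNS (-0.11 ± 0.07), where its groups did not overlap. RNA levels do not measure NRF2 protein, which is where KEAP1 acts.

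The aKO and Cont cultures with siNS were compared first, and the genes that rose in aKO cultures of both depots were the glutathione transferase genes Gsta4, Gstt1, Mgst3 and Gstm1 and the gene of the rate-limiting enzyme of glutathione synthesis, Gclc. In eWAT, 8 of the 33 tested genes rose in aKO cultures and 0 fell (edgeR quasi-likelihood test, Benjamini-Hochberg adjusted p under 0.05); over all 14785 tested genes 20.4% passed, 9.5% upward and 10.9% downward. In iWAT, 5 rose and 3 fell, and 15.2% of all genes passed, 7.32% upward and 7.85% downward. These 5 were among the 8 called in each depot, and in eWAT Gpx3, Gstm2 and Gstm5 rose as well. Calls shared by the depots were not counted over all tested genes, here or below. Such overlaps are therefore not shown to be particular to the listed genes. Same-numbered Cont siNS libraries of the depots deviated together (correlations of 0.27, 0.425 and 0.312). Agreement between the depots is therefore not independent, here or in later comparisons with Cont siNS. The median log2 fold change of the tested members was 0.15 in eWAT, against 0.0036 for all tested genes, and 0.012 in iWAT, against -0.00087. The iWAT median was 0.12 without the shallow library, against -0.0062 for all tested genes. The eWAT median was then 0.16.

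Gsta4 (ENSMUSG00000032348, chr9:78182774-78209349, plus strand), which conjugates glutathione to aldehydes of oxidised lipid, changed most. It read 10.0, 11.2 and 15.1 CPM in eWAT aKO siNS libraries, against 2.39, 2.92 and 2.21 CPM in eWAT Cont siNS libraries. Every aKO library exceeded every Cont library, and the log2 fold change was 2.27 ± 0.24 (edgeR adjusted p = 3.32e-07). In iWAT the values were 10.9, 1.98 and 12.8 CPM in aKO siNS and 3.70, 2.18 and 3.61 CPM in Cont siNS, where the low aKO value belongs to the shallow library, and the log2 fold change was 1.86 ± 0.28, or 1.90 ± 0.27 without it. Gstt1 (chr10:75783813-75798584, minus strand), a theta-class transferase, read 15.0, 16.7 and 19.3 CPM in eWAT aKO siNS, against 6.91, 7.06 and 6.55 CPM in eWAT Cont siNS, a log2 fold change of 1.32 ± 0.14. Its iWAT values were 16.8, 7.91 and 19.3 CPM in aKO siNS and 7.98, 6.34 and 8.90 CPM in Cont siNS (log2 fold change 1.20 ± 0.15, and 1.23 ± 0.15 without the shallow library). Its chromosome 10 neighbour Gstt2, 32529 bases away, read 4.70, 4.67 and 4.79 CPM in eWAT aKO siNS and 4.86, 4.34 and 4.20 CPM in eWAT Cont siNS and did not pass. The membrane-bound enzyme gene Mgst3 rose by 0.66 ± 0.16 (log2) in eWAT, with 12.2, 15.0 and 18.5 CPM in aKO siNS and 10.1, 10.9 and 8.05 CPM in Cont siNS, and the groups did not overlap. In iWAT it had 13.2, 5.93 and 16.1 CPM in aKO siNS and 8.14, 9.11 and 6.98 CPM in Cont siNS and rose by 0.82 ± 0.19 (log2).

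The mu-class transferases lie together on chromosome 3, with 25801 bases between Gstm2 and Gstm1 and 83015 between Gstm5 and Gstm2. Gstm1 read 75.0, 81.7 and 84.3 CPM in eWAT aKO siNS, against 49.1, 55.4 and 53.9 CPM in eWAT Cont siNS, and 78.1, 45.5 and 85.3 CPM in iWAT aKO siNS, against 56.4, 61.5 and 63.4 CPM in iWAT Cont siNS. Its log2 fold changes were 0.61 ± 0.10 in eWAT and 0.39 ± 0.11 in iWAT. Gstm2 (148, 159 and 178 CPM in eWAT aKO siNS and 115, 121 and 123 CPM in eWAT Cont siNS) and Gstm5 (28.2, 33.2 and 35.3 CPM and 23.9, 26.3 and 23.1 CPM in the same groups) rose on the log2 scale by 0.43 ± 0.10 and 0.40 ± 0.12 in eWAT. These 3 genes are close in sequence, so reads may be split or lost between them, and 13.9% of the exon bases of Gstm5 are shared with an antisense gene. Gstp1, the pi-class transferase, read 76.7 ± 7.82 CPM in eWAT aKO siNS and 70.1 ± 4.45 CPM in eWAT Cont siNS (SD, n = 3 each) and did not pass.

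Gclc, the catalytic subunit of glutamate-cysteine ligase, read 50.7, 48.5 and 51.8 CPM in eWAT aKO siNS, against 37.0, 36.2 and 44.3 CPM in eWAT Cont siNS, a log2 fold change of 0.36 ± 0.082 (edgeR adjusted p = 0.00171). Values in iWAT were 45.7, 61.3 and 47.0 CPM in aKO siNS and 31.01, 29.1 and 36.0 CPM in Cont siNS (log2 fold change 0.57 ± 0.096). The aKO libraries lay above the Cont libraries in both depots. Its modifier subunit Gclm did not pass, at 83.0, 94.8 and 89.2 CPM in eWAT aKO siNS and 95.8, 92.5 and 97.4 CPM in eWAT Cont siNS. Its exons share 4.7% of their bases with a gene on the other strand and 3.9% with a pseudogene on the same strand. Gpx3 read 2027, 2100.4 and 2169 CPM in eWAT aKO siNS, against 1230.3, 1362 and 1369.6 CPM in eWAT Cont siNS, and rose by 0.67 ± 0.17 (log2). In iWAT the aKO siNS values were 2333, 1066 and 2264 CPM and the Cont siNS values 1339, 1599.8 and 1499 CPM, and the gene passed only without the shallow library (0.63 ± 0.088, edgeR adjusted p = 5.65e-06, against 0.155 with it).

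The 3 genes that fell in iWAT aKO siNS cultures were Mt2, Mt1 and Hmox1. Mt2, which encodes a small metal-binding protein, read 462, 247 and 438 CPM in iWAT aKO siNS and 526, 687 and 758 CPM in iWAT Cont siNS, a log2 fold change of -0.70 ± 0.15. Mt1 read 437, 316 and 425 CPM in iWAT aKO siNS and 491, 579.9 and 601 CPM in iWAT Cont siNS, a log2 fold change of -0.46 ± 0.11. Hmox1, the inducible haem oxygenase, read 380.0, 227 and 386 CPM in iWAT aKO siNS and 440.0, 419 and 485 CPM in iWAT Cont siNS, a log2 fold change of -0.36 ± 0.11. No library of one group reached the range of the other for these genes. In eWAT, Mt2 had 409, 496 and 477 CPM in aKO siNS and 494, 553 and 493 CPM in Cont siNS and did not pass. Nqo1, the textbook NRF2 target, read 8.54, 9.82 and 9.20 CPM in eWAT aKO siNS and 7.53, 8.005 and 9.26 CPM in eWAT Cont siNS, groups that overlapped.

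Without the shallow library, 16 members passed in eWAT (14 rose, 2 fell; 25.8% of all genes) and 15 in iWAT (11 rose, 4 fell; 18.4%), and 13 of these passed in both depots in the same direction: Hmox1, Gclc, Txnrd1, Gpx3, Cat, Sod3, Gsta4, Gstm1, Gstm2, Gstm5, Gstt1, Mgst1 and Mgst3. The iWAT log2 fold changes without it were 0.85 for Mgst3, 0.43 for Gstm1, 0.53 for Gclc, -0.55 for Mt2, -0.38 for Mt1 and -0.23 for Hmox1. With single other libraries left out, Gstm5 lost its call in eWAT without Cont siNS replicate 1 or 3 or aKO siNS replicate 2 or 3 (edgeR adjusted p 0.0536 to 0.104), and in iWAT Gstm1 lost it without Cont siNS replicate 1 or aKO siNS replicate 1 or 3 (0.0758 to 0.234), Hmox1 without Cont siNS replicate 3 (0.112) and Mgst3 without aKO siNS replicate 3 (0.0956). Adipocyte markers moved with these genes: 8 of 15 rose in eWAT and 3 of 15 in iWAT (9 and 5 without the shallow library), with a summed level of 3307 to 3824 CPM in eWAT aKO siNS, 2169.9 to 2897 CPM in eWAT Cont siNS, 3830.3 to 4535 CPM in iWAT aKO siNS and 2537 to 3488 CPM in iWAT Cont siNS. Macrophage and leukocyte markers fell for 6 of 9 tested in eWAT and 4 of 9 in iWAT (5 and 4 without it), with sums of 1483 to 1572 CPM in eWAT aKO siNS against 1848 to 2576 CPM in eWAT Cont siNS. Smooth muscle and pericyte markers fell for 2 of 6 in eWAT and 4 of 6 in iWAT. Endothelial markers fell for 3 of 6 in each depot with 1 higher. Fibroblast and progenitor markers rose for 5 of 10 in eWAT and 3 of 10 in iWAT with 1 lower in each. The part of these cell types in the result was not tested.

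**Figure D2:**
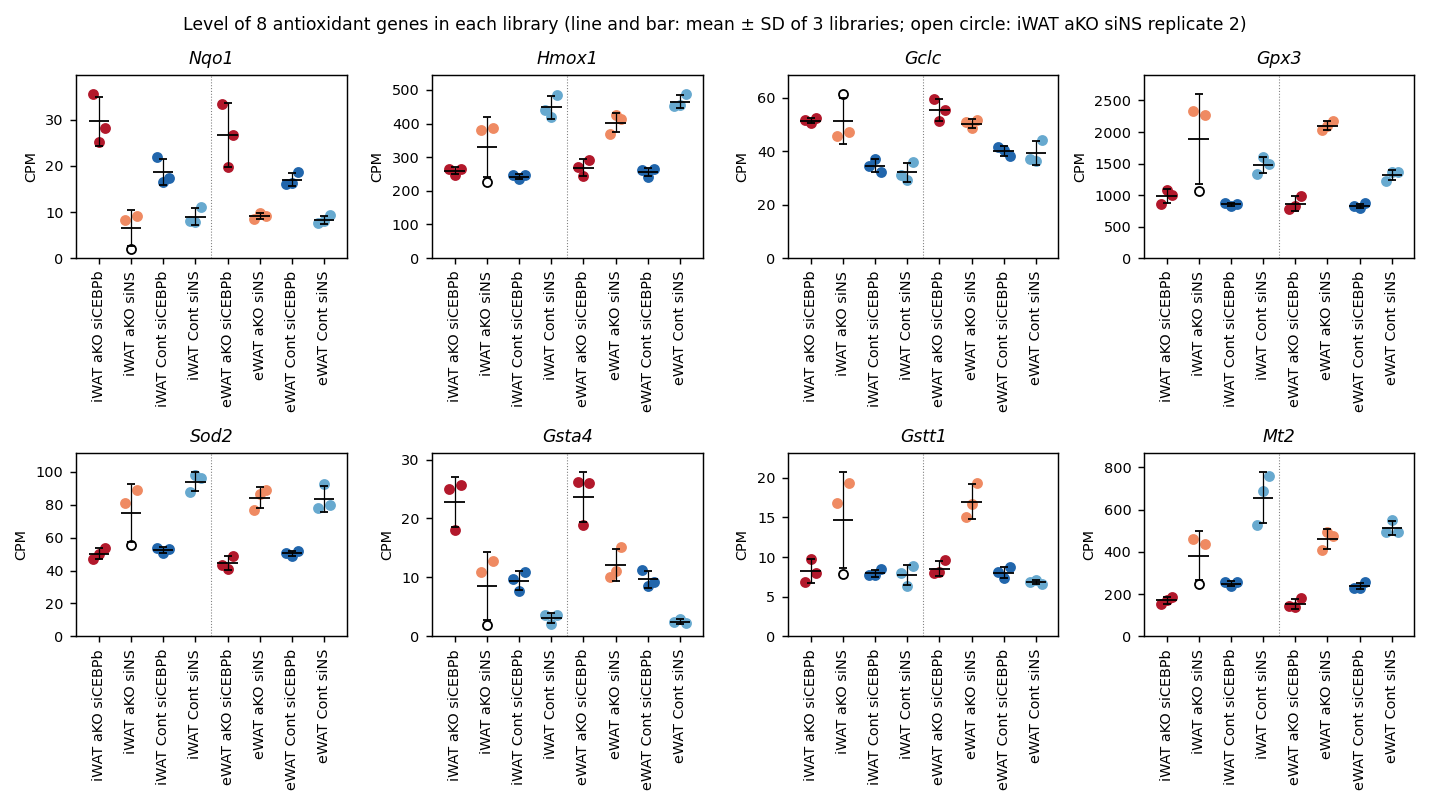
CPM of 8 of the genes in each library, by group; the horizontal line and bar are the mean ± SD of 3 libraries, and the open circle is iWAT aKO siNS replicate 2. Apart from the open circle, Gstt1 is high in the aKO siNS groups alone, between 15.0 and 19.3 CPM, and Gsta4 is highest in aKO siCEBPb and lowest in Cont siNS.

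With Cebpb knocked down, Nqo1, the glutathione synthesis genes Gclc and Gss, and the transferase genes Gsta4 and Gsto1 were higher in aKO cultures of both depots, and Mt2 was lower. In eWAT 6 members rose and 1 fell in aKO siCEBPb against Cont siCEBPb, where 10.8% of all genes passed (3.9% upward, 6.87% downward). In iWAT 6 rose and 2 fell, with 10.0% of all genes (3.52% upward, 6.51% downward). All 7 called in eWAT were among the 8 called in iWAT, in the same direction: Nqo1, Gclc, Gss, Srxn1, Gsta4 and Gsto1 rose and Mt2 fell. The eighth was Gsta3, which fell in iWAT. Same-numbered aKO siCEBPb libraries of the depots deviated together (correlations of 0.748, 0.424 and 0.537). Agreement between the depots is therefore not independent here, and the overlap over all genes was not counted. The median log2 fold change of the members was 0.013 in eWAT and 0.049 in iWAT, against -0.002 and -0.0016 over all tested genes.

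Nqo1 (chr8:107388225-107403206, minus strand), a quinone reductase, read 33.5, 19.7 and 26.8 CPM in eWAT aKO siCEBPb, against 16.1, 16.2 and 18.7 CPM in eWAT Cont siCEBPb, a log2 fold change of 0.65 ± 0.16 (edgeR adjusted p = 0.00705). In iWAT it read 35.6, 25.3 and 28.2 CPM in aKO siCEBPb and 21.9, 16.6 and 17.4 CPM in Cont siCEBPb (log2 fold change 0.68 ± 0.16). The aKO libraries were higher than the Cont libraries in both depots. Gsta4 read 26.1, 18.8 and 25.9 CPM in eWAT aKO siCEBPb and 11.3, 8.47 and 9.19 CPM in eWAT Cont siCEBPb, a log2 fold change of 1.29 ± 0.18, and 25.0, 17.97 and 25.6 CPM in iWAT aKO siCEBPb and 9.79, 7.73 and 10.8 CPM in iWAT Cont siCEBPb, a log2 fold change of 1.27 ± 0.19. Gclc differed under siCEBPb too, with log2 fold changes of 0.47 ± 0.081 in eWAT (59.4, 51.3 and 55.5 CPM in aKO and 41.7, 40.5 and 38.0 CPM in Cont) and 0.57 ± 0.084 in iWAT (51.5, 50.5 and 52.3 CPM in aKO and 34.3, 37.1 and 32.3 CPM in Cont). It was the only member besides Gsta4 that rose in aKO cultures of both depots under both siRNAs.

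Gss, which adds glycine to complete glutathione, read 34.7, 34.9 and 31.6 CPM in eWAT aKO siCEBPb and 25.7, 27.6 and 28.8 CPM in eWAT Cont siCEBPb, and rose by 0.30 ± 0.078 (log2). For iWAT the values were 34.2, 31.1 and 32.3 CPM in aKO siCEBPb and 28.9, 25.1 and 26.1 CPM in Cont siCEBPb, a rise of 0.29 ± 0.081 (log2). The gene shares exon bases with Acss2 and 2 antisense genes on the other strand. Srxn1, sulfiredoxin, which repairs over-oxidised peroxiredoxins, had narrow groups: 128, 127 and 126 CPM in eWAT aKO siCEBPb and 106, 107 and 109 CPM in eWAT Cont siCEBPb, and 125, 113 and 122 CPM in iWAT aKO siCEBPb and 102, 102 and 95.7 CPM in iWAT Cont siCEBPb. Its rises (log2) were 0.24 ± 0.068 and 0.26 ± 0.069. Gsto1, the omega-class transferase, read 139.7, 123 and 124 CPM in eWAT aKO siCEBPb against 98.1, 97.6 and 103 CPM in eWAT Cont siCEBPb, and 150.2, 124 and 138 CPM in iWAT aKO siCEBPb against 99.2, 107 and 102 CPM in iWAT Cont siCEBPb, with log2 rises of 0.38 ± 0.11 and 0.42 ± 0.11. The aKO and Cont libraries of Gss, Srxn1 and Gsto1 did not overlap in either depot.

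Mt2 read 145, 139 and 182 CPM in eWAT aKO siCEBPb and 230.2, 229 and 258 CPM in eWAT Cont siCEBPb, a log2 fold change of -0.62 ± 0.15. Mt2 in iWAT had 151, 174 and 187 CPM in aKO siCEBPb and 256, 237 and 256 CPM in Cont siCEBPb, a log2 fold change of -0.55 ± 0.15. Gsta3, an alpha-class transferase, read 2.99, 3.17 and 3.45 CPM in iWAT aKO siCEBPb and 4.56, 6.39 and 6.75 CPM in iWAT Cont siCEBPb, a log2 fold change of -0.90 ± 0.25. The aKO libraries were lower for both genes. Gstt1, raised in aKO siNS cultures, read 7.93, 8.13 and 9.62 CPM in eWAT aKO siCEBPb and 8.07, 7.34 and 8.73 CPM in eWAT Cont siCEBPb and did not pass here.

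Without the shallow library 8 members passed in eWAT (14.4% of all genes) and 9 in iWAT (13.2%), with Mt1 added in each. Several of these calls rested on few libraries, and the share of all genes that passed fell as well. In eWAT this share was 7.29% without aKO siCEBPb replicate 1 and 7.57% without Cont siCEBPb replicate 1. In iWAT it was 6.25% without aKO siCEBPb replicate 1 and 6.71% without Cont siCEBPb replicate 3. In eWAT, leaving out aKO siCEBPb replicate 1 ended the calls of Nqo1 (log2 fold change 0.45, edgeR adjusted p = 0.0776), Gss, Srxn1 and Gsto1 and left 3 members called; leaving out Cont siCEBPb replicate 1 ended those of Gss, Srxn1 and Gsto1 and left 4, and without Cont siCEBPb replicate 2 (Srxn1, Gsto1) or 3 (Gsto1) further calls were lost (all edgeR adjusted p 0.0552 to 0.142). In iWAT, 2 members were called without aKO siCEBPb replicate 1 (Nqo1 log2 fold change 0.53, edgeR adjusted p = 0.0582) and 3 without Cont siCEBPb replicate 3, and Gss, Srxn1, Gsta3, Gsto1 or Mt2 also lost a call without Cont siCEBPb replicate 1 or 2 or aKO siCEBPb replicate 2 or 3 (0.0513 to 0.131). Macrophage and leukocyte markers fell here too, for 9 of 9 tested in eWAT and 8 of 9 in iWAT, with sums of 83.1 to 181 CPM in eWAT aKO siCEBPb against 335 to 389 CPM in eWAT Cont siCEBPb, while 0 of 15 adipocyte markers passed in eWAT and 1 rose in iWAT; Cebpb itself averaged 27.4 ± 6.49 CPM in eWAT aKO siCEBPb and 50.4 ± 7.56 CPM in eWAT Cont siCEBPb (SD, n = 3 each). Mesothelial markers fell for 4 of 4 tested in eWAT and 2 of 4 in iWAT. Endothelial markers fell for 2 of 6 in eWAT and 4 of 6 in iWAT. In each depot 1 of 10 fibroblast and progenitor markers rose and 2 fell. Of 6 smooth muscle and pericyte markers, 1 rose and 1 fell in each. The part of any of these cell types or of Cebpb in the result was not tested.

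**Figure D3:**
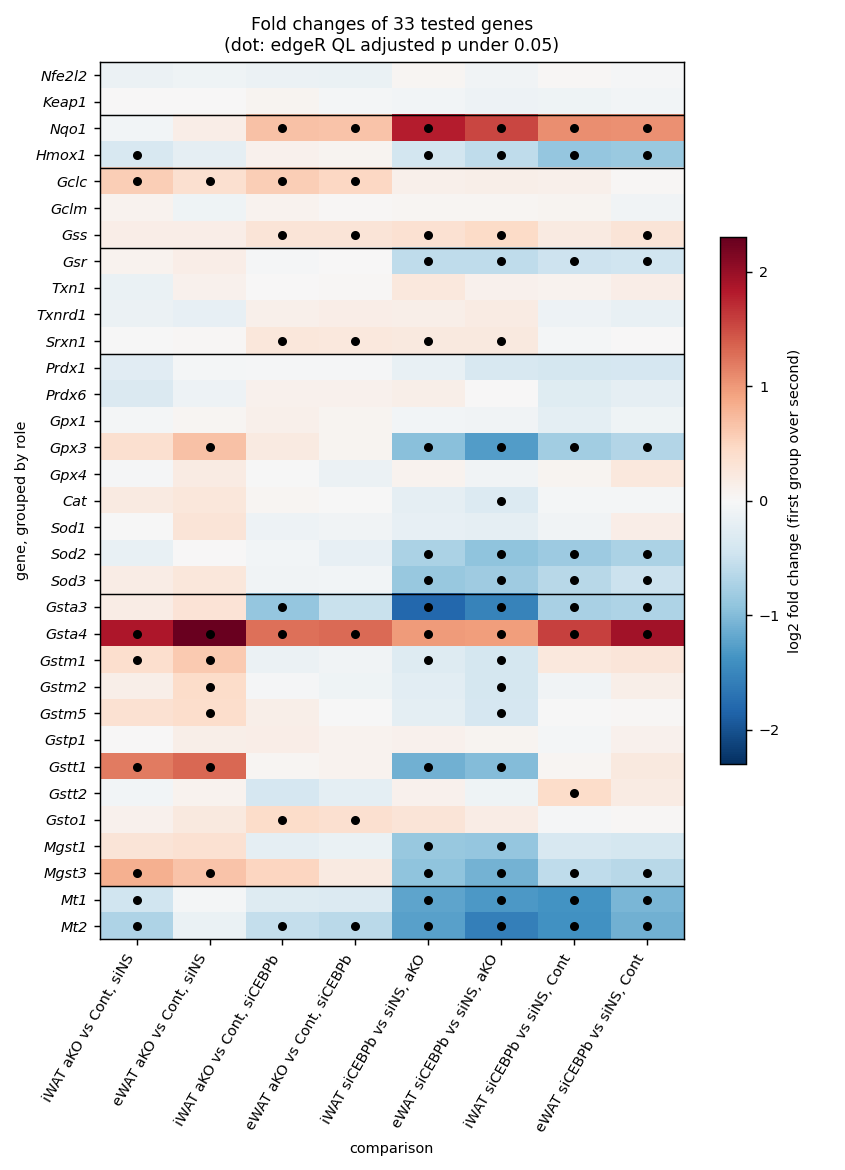
Log2 fold change of the 33 tested genes (rows, grouped by role) in 8 comparisons (columns), the first-named group over the second; a dot marks an edgeR quasi-likelihood adjusted p under 0.05. Gsta4 is red with a dot in every column, and Mt1 and Mt2 are blue with a dot in all 4 siRNA columns.

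With siCEBPb, the metallothioneins, Sod2, Sod3, Gpx3, Gsr, Hmox1, Gsta3 and Mgst3 fell and Nqo1 and Gsta4 rose in both genotypes and both depots. In eWAT aKO cultures 4 members rose and 15 fell, where 35.7% of all genes passed (16.6% upward, 19.1% downward). In iWAT aKO cultures 4 rose and 12 fell, with 31.3% of all genes (13.6% upward, 17.7% downward). In Cont cultures 3 rose and 9 fell in each depot, with 26.8% of all genes in eWAT (11.8% upward, 14.9% downward) and 24.3% in iWAT (10.3% upward, 14.0% downward). In aKO cultures all 16 called in iWAT were among the 19 called in eWAT, and of the calls in Cont cultures 11 were shared by the depots out of 12 each. The shared calls had the same direction. Overlap of the depots over all genes was not counted. Same-numbered aKO siCEBPb and Cont siNS libraries of the depots deviated together. Agreement between the depots is therefore not independent here, nor below without the shallow library. The median log2 fold change of the members was -0.22 in eWAT aKO and -0.17 in iWAT aKO, and -0.037 in eWAT Cont and -0.084 in iWAT Cont, against -0.0011, -0.0062, 0.023 and 0.0041 over all tested genes. Leaving out the shallow library gave medians of -0.23 in eWAT aKO and -0.29 in iWAT aKO.

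The metallothioneins bind zinc and copper, and their genes lie 5513 bases apart on chromosome 8 (Mt2 at chr8:94172664-94173568, plus strand). Both fell in all 4 comparisons. Mt2 read 145, 139 and 182 CPM in eWAT aKO siCEBPb, against 409, 496 and 477 CPM in eWAT aKO siNS, and 230.2, 229 and 258 CPM in eWAT Cont siCEBPb, against 494, 553 and 493 CPM in eWAT Cont siNS. Its log2 fold changes were -1.57 ± 0.15 in eWAT aKO, -1.10 ± 0.15 in eWAT Cont, -1.24 ± 0.16 in iWAT aKO and -1.40 ± 0.15 in iWAT Cont, and the siCEBPb libraries lay below the siNS libraries in each. In iWAT it read 151, 174 and 187 CPM in aKO siCEBPb against 462, 247 and 438 CPM in aKO siNS, and 256, 237 and 256 CPM in Cont siCEBPb against 526, 687 and 758 CPM in Cont siNS. Mt1 read 147, 176 and 180.1 CPM in eWAT aKO siCEBPb against 368, 443 and 442 CPM in eWAT aKO siNS, and 205, 195 and 227 CPM in eWAT Cont siCEBPb against 414, 470.2 and 417 CPM in eWAT Cont siNS. Its log2 fold changes were -1.32 ± 0.11 in eWAT aKO, -1.05 ± 0.11 in eWAT Cont, -1.22 ± 0.11 in iWAT aKO and -1.38 ± 0.11 in iWAT Cont. An antisense gene shares 73.5% of the exon bases of Mt2, and since it is not given whether reads were counted by strand, its reads cannot be told apart from those of Mt2.

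Among the enzymes that remove peroxide and superoxide, Sod2, the mitochondrial superoxide dismutase, read 43.2, 40.7 and 49.0 CPM in eWAT aKO siCEBPb, against 77.1, 86.2 and 89.2 CPM in eWAT aKO siNS, a log2 fold change of -0.93 ± 0.087. In eWAT Cont it read 50.6, 48.6 and 52.0 CPM with siCEBPb and 78.0, 92.3 and 79.8 CPM with siNS (log2 fold change -0.73 ± 0.086). The groups did not overlap, also in iWAT, where the log2 fold changes were -0.72 ± 0.094 in aKO and -0.84 ± 0.088 in Cont. Sod3, the secreted form, had log2 fold changes of -0.82 ± 0.11 in eWAT aKO, -0.87 ± 0.11 in iWAT aKO, -0.50 ± 0.11 in eWAT Cont and -0.63 ± 0.11 in iWAT Cont, and passed in each. Sod1, the cytosolic form, had log2 fold changes of -0.22 ± 0.12 in eWAT aKO and 0.15 ± 0.12 in eWAT Cont and did not pass with all libraries.

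Gpx3 read 775, 824 and 992 CPM in eWAT aKO siCEBPb, against 2027, 2100.4 and 2169 CPM in eWAT aKO siNS, and 819, 800.4 and 869 CPM in eWAT Cont siCEBPb, against 1230.3, 1362 and 1369.6 CPM in eWAT Cont siNS. Its log2 fold changes were -1.28 ± 0.17 in eWAT aKO and -0.67 ± 0.17 in eWAT Cont, and -0.97 ± 0.17 in iWAT aKO and -0.80 ± 0.17 in iWAT Cont. In iWAT it read 861, 1079.5 and 996 CPM in aKO siCEBPb and 2333, 1066 and 2264 CPM in aKO siNS, and 870.0, 830.3 and 850.4 CPM in Cont siCEBPb and 1339, 1599.8 and 1499 CPM in Cont siNS. All siCEBPb values were below all siNS values in each pair except in iWAT aKO, where the shallow library overlapped. Cat, catalase, read 129, 137 and 166 CPM in eWAT aKO siCEBPb and 161, 190.3 and 183 CPM in eWAT aKO siNS and fell there (-0.31 ± 0.11), although the groups overlapped. The other glutathione peroxidases, cytosolic Gpx1 and Gpx4, which removes lipid peroxides in membranes, did not pass with all libraries. Prdx1, a peroxiredoxin, had log2 fold changes of -0.39 ± 0.15 in eWAT Cont and -0.40 ± 0.15 in iWAT Cont, with no overlap between siCEBPb and siNS libraries, and passed only without the shallow library (edgeR adjusted p = 1.19e-06 and 9.61e-07, against 0.0611 and 0.057 with it).

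The NRF2 target genes Nqo1 and Hmox1 went opposite ways. Nqo1 read 33.5, 19.7 and 26.8 CPM in eWAT aKO siCEBPb, against 8.54, 9.82 and 9.20 CPM in eWAT aKO siNS, and 16.1, 16.2 and 18.7 CPM in eWAT Cont siCEBPb, against 7.53, 8.005 and 9.26 CPM in eWAT Cont siNS. Its log2 fold changes were 1.54 ± 0.17 in aKO and 1.04 ± 0.18 in Cont. The iWAT values were 35.6, 25.3 and 28.2 CPM in aKO siCEBPb and 8.17, 1.98 and 9.20 CPM in aKO siNS, and 21.9, 16.6 and 17.4 CPM in Cont siCEBPb and 7.98, 7.92 and 11.1 CPM in Cont siNS, with log2 fold changes of 1.80 ± 0.20 in aKO and 1.06 ± 0.20 in Cont. All siCEBPb libraries were above all siNS libraries in the 4 comparisons. Hmox1 read 270.1, 244 and 293 CPM in eWAT aKO siCEBPb, against 370.1, 425 and 414 CPM in eWAT aKO siNS, and 262, 241 and 265 CPM in eWAT Cont siCEBPb, against 453, 454 and 487 CPM in eWAT Cont siNS. Its log2 fold changes were -0.58 ± 0.11 in eWAT aKO, -0.86 ± 0.11 in eWAT Cont, -0.42 ± 0.11 in iWAT aKO and -0.89 ± 0.11 in iWAT Cont.

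In the synthesis and recycling of glutathione, Gsr, glutathione reductase, fell in each comparison, with log2 fold changes of -0.59 ± 0.086 in eWAT aKO, -0.58 ± 0.095 in iWAT aKO, -0.45 ± 0.086 in eWAT Cont and -0.47 ± 0.09 in iWAT Cont. Gss rose in eWAT aKO (0.44 ± 0.079), iWAT aKO (0.34 ± 0.09) and eWAT Cont (0.29 ± 0.081), and did not pass in iWAT Cont (0.21 ± 0.087). Gclc, higher in aKO cultures, had log2 fold changes of 0.14 in eWAT aKO and 0.034 in eWAT Cont with siCEBPb and did not pass in any of the 4. Srxn1 rose in aKO cultures, on the log2 scale by 0.22 ± 0.068 in eWAT and 0.23 ± 0.075 in iWAT, and had log2 fold changes of 0.0084 and -0.048 in Cont cultures.

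The transferases split. Gsta4 rose in all 4 comparisons, with log2 fold changes of 0.96 ± 0.17 in eWAT aKO, 1.94 ± 0.25 in eWAT Cont, 0.98 ± 0.20 in iWAT aKO and 1.57 ± 0.27 in iWAT Cont, from the values given above, and its siCEBPb and siNS libraries did not overlap in any of them. Gsta3 fell in all 4, with 3.47, 4.06 and 5.19 CPM in eWAT aKO siCEBPb against 9.01, 13.3 and 14.3 CPM in eWAT aKO siNS, and 6.48, 5.95 and 5.73 CPM in eWAT Cont siCEBPb against 8.14, 12.0 and 9.47 CPM in eWAT Cont siNS. The log2 fold changes of Gsta3 were -1.54 ± 0.20 in eWAT aKO, -0.71 ± 0.19 in eWAT Cont, -1.81 ± 0.24 in iWAT aKO and -0.75 ± 0.21 in iWAT Cont. Mgst3 fell in all 4 as well, with 7.53, 7.31 and 6.78 CPM in eWAT aKO siCEBPb and 12.2, 15.0 and 18.5 CPM in eWAT aKO siNS (-1.09 ± 0.16), and 7.21, 5.23 and 6.33 CPM in eWAT Cont siCEBPb and 10.1, 10.9 and 8.05 CPM in eWAT Cont siNS (-0.63 ± 0.18). Gstt1 fell in aKO cultures, to 7.93, 8.13 and 9.62 CPM in eWAT aKO siCEBPb, against 15.0, 16.7 and 19.3 CPM in eWAT aKO siNS, and had log2 fold changes of 0.23 ± 0.15 in eWAT Cont and 0.048 ± 0.16 in iWAT Cont. Mgst1, a membrane-bound transferase with peroxidase activity, read 71.9, 102 and 103 CPM in eWAT aKO siCEBPb and 152, 178 and 185 CPM in eWAT aKO siNS, with log2 fold changes of -0.90 ± 0.16 in eWAT aKO and -0.87 ± 0.17 in iWAT aKO. The mu-class genes Gstm1 (-0.40), Gstm2 (-0.40) and Gstm5 (-0.38) fell in eWAT aKO, Gstm1 also in iWAT aKO (-0.29), and Gstt2 rose in iWAT Cont (0.43 ± 0.15).

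Of the 33 tested genes, 11 passed in none of the 8 comparisons by genotype or siRNA with all libraries: Nfe2l2, Keap1, Gclm, Txnrd1, Txn1, Prdx1, Prdx6, Gpx1, Gpx4, Sod1 and Gstp1. This count, and the one below without the shallow library, were not made over all tested genes. Txn1 encodes the thioredoxin that reduces peroxiredoxins, and Prdx6 a peroxiredoxin that uses glutathione. Txn1 averaged 167 ± 7.43 CPM in eWAT aKO siCEBPb and 157 ± 10.5 CPM in eWAT aKO siNS, and Prdx6 262 ± 13.7 CPM and 259.6 ± 15.4 CPM in these groups, and 246 ± 9.08 CPM in eWAT Cont siCEBPb and 282 ± 16.1 CPM in eWAT Cont siNS (SD, n = 3 each). Of these 11, 6 passed in at least 1 of the 8 comparisons without the shallow library, with the log2 fold changes that follow. Prdx1 fell with siCEBPb in all 4 comparisons (-0.38 to -0.41). Prdx6 fell with it in Cont cultures of both depots (-0.21 in eWAT and -0.29 in iWAT). Gpx1 fell in iWAT Cont (-0.23) and iWAT aKO (-0.20), and Sod1 in aKO cultures (-0.23 in eWAT and -0.31 in iWAT). Gpx4 rose in eWAT Cont (0.24). Txnrd1 rose with siCEBPb in aKO cultures (0.16 in eWAT and 0.19 in iWAT) and fell in eWAT Cont (-0.18). Between aKO and Cont siNS cultures, Txnrd1 fell in both depots (-0.19 in eWAT and -0.20 in iWAT), and Sod1 (0.30) and Gpx4 (0.20) rose in eWAT. Gstp1 has a near-identical neighbour, Gstp2, and Txn1 and Prdx1 have processed copies in the genome, so their counts are uncertain.

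All 5 members with the C/EBP core in their promoter window, the 4 printed and Gstm2, fell in eWAT aKO cultures with siCEBPb, and 4 of the 5 fell in iWAT aKO; of the 21 tested members with a window but no such core, 7 fell in eWAT and 5 in iWAT. Over all tested genes with a window, 28.6% of those with the core and 19.0% of those without fell in eWAT aKO, and 25.6% and 17.8% in iWAT aKO. In Cont cultures 2 of the 5 and 4 of the 21 fell in each depot. The shares were 21.3% and 15.1% of all genes with and without the core in eWAT and 20.5% and 13.9% in iWAT. With the shallow library left out, 5 of the 5 and 10 of the 21 fell in iWAT aKO (28.0% and 20.3% of all genes). These numbers were 5 and 9 in eWAT aKO (32.5% and 22.8%), and 3 and 6 in Cont cultures of each depot. For Cont cultures the shares of all genes were 24.8% and 18.5% in eWAT and 22.5% and 16.9% in iWAT. For the antioxidant core, 4 of 10 members with it and 8 of 16 without fell in eWAT aKO (20.9% and 19.8% of all genes). In iWAT aKO 3 of 10 and 6 of 16 fell (19.0% and 18.5%). Without the shallow library these were 6 and 8 in eWAT aKO (24.8% and 23.6% of all genes). In iWAT aKO they were then 6 and 9 (22.4% and 20.9%). In Cont cultures 2 of 10 and 4 of 16 fell in each depot. The shares were 17.3% and 15.4% of all genes in eWAT and 16.1% and 14.3% in iWAT. With the shallow library left out, 5 and 4 fell in eWAT Cont (20.8% and 18.8%). In iWAT Cont 4 and 5 then fell (19.8% and 17.0%). A link between either core and the falls was not tested.

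Macrophage and leukocyte markers moved with siCEBPb in the same direction as the falling genes: 9 of 9 tested fell in each of the 4 comparisons. Their summed level was 83.1 to 181 CPM in eWAT aKO siCEBPb against 1483 to 1572 CPM in eWAT aKO siNS, and 335 to 389 CPM in eWAT Cont siCEBPb against 1848 to 2576 CPM in eWAT Cont siNS, and in iWAT 68.7 to 161 CPM in aKO siCEBPb against 815 to 1498 CPM in aKO siNS, and 319.8 to 349 CPM in Cont siCEBPb against 1767 to 2446 CPM in Cont siNS. The lymphocyte gene Cd3e had 0 reads over all libraries. Adipocyte markers fell for 11 of 15 in eWAT aKO and 10 of 15 in iWAT aKO, and for 5 of 15 in Cont cultures of each depot, with sums of 916 to 1783 CPM in eWAT aKO siCEBPb against 3307 to 3824 CPM in eWAT aKO siNS. Smooth muscle and pericyte markers rose for 5 of 6 in each comparison, with sums of 3297 to 4482 CPM in eWAT aKO siCEBPb against 1274 to 1311 CPM in eWAT aKO siNS. Of 10 fibroblast and progenitor markers, 5 fell and 2 rose in eWAT aKO, and 6 fell and 1 rose in iWAT aKO. In Cont cultures 3 fell and 2 rose in eWAT, and 4 fell and 2 rose in iWAT. Of 4 tested mesothelial markers, 3 rose in Cont cultures of each depot, 1 fell in iWAT Cont, and 0 passed in aKO cultures. Endothelial markers moved both ways. The part of these cell types in the result was not tested.

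Without the shallow library 18 members passed in eWAT Cont (31.7% of all genes), 16 in iWAT Cont (29.1%), 22 in eWAT aKO (40.7%) and 23 in iWAT aKO (34.7%), and all 22 of eWAT aKO were among the 23 of iWAT aKO, in the same direction. The iWAT aKO log2 fold changes without it were 1.76 for Nqo1, 0.93 for Gsta4, 0.33 for Gss, 0.17 for Srxn1, -1.41 for Mt2, -1.32 for Mt1, -1.24 for Gpx3, -0.77 for Sod2, -0.99 for Sod3, -0.57 for Hmox1, -0.63 for Gsr, -1.85 for Gsta3, -1.01 for Mgst1, -0.96 for Mgst3, -1.14 for Gstt1 and -0.35 for Gstm1. Left-out single libraries ended the calls of Gsta3 in Cont cultures (eWAT siNS replicate 2, edgeR adjusted p = 0.0701; iWAT siNS replicate 2, 0.0795; iWAT siCEBPb replicate 1, 0.0578), of Mgst3 in Cont cultures (eWAT siNS or siCEBPb replicate 2, iWAT siNS or siCEBPb replicate 1, iWAT siNS replicate 2 and iWAT siCEBPb replicate 3, 0.0533 to 0.147), and in aKO cultures of Srxn1 (eWAT siNS replicate 1, iWAT siNS replicate 1, iWAT siCEBPb replicates 1 and 3, 0.0501 to 0.0846), Hmox1 (iWAT siNS replicate 1 or 3, 0.0509 and 0.0598), Gss (iWAT siNS replicate 3, 0.0668), Gstm5 (eWAT siNS replicate 3, 0.0752), Cat (eWAT siNS replicate 2 or 3 or siCEBPb replicate 1 or 2, 0.0794 to 0.133) and Gstm1 (iWAT siNS replicate 1 or 3 or siCEBPb replicate 1 or 2, 0.0633 to 0.369). In iWAT Cont cultures, Gstt2 lost its call without siNS or siCEBPb replicate 1 or 2 (0.0989 to 0.254).

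Whether siCEBPb acted alike in the genotypes was tested with an interaction term, the siCEBPb effect in aKO minus that in Cont. In eWAT 4 members passed, 1 above 0 and 3 below (6.34% of all genes), and in iWAT 1 passed (3.51%). The depots are not independent here either, since same-numbered aKO siCEBPb and Cont siNS libraries deviated together. Gstt1 passed in both depots, with a difference of -1.23 ± 0.20 in eWAT (edgeR adjusted p = 0.000314) and -1.15 ± 0.22 in iWAT (0.00214): its siCEBPb log2 fold change was -0.99 in eWAT aKO and 0.23 in eWAT Cont. Gstm1 differed by -0.68 ± 0.15 in eWAT, with log2 fold changes of -0.40 in aKO and 0.28 in Cont, and Gstm2 by -0.54 ± 0.15, with -0.40 in aKO and 0.14 in Cont. Txnrd1, cytosolic thioredoxin reductase, differed by 0.35 ± 0.11, with 222, 187 and 193 CPM in aKO siCEBPb, 181, 174 and 176 CPM in aKO siNS, 180.4, 188 and 173 CPM in Cont siCEBPb and 206, 197 and 206 CPM in Cont siNS. Cebpb RNA was itself lower in aKO than in Cont cultures after siCEBPb, with log2 fold changes of -0.88 in eWAT and -0.97 in iWAT (edgeR adjusted p = 0.00134 and 0.00155), and its part in these differences was not tested.

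Without the shallow library the interaction passed for 11 members in eWAT (11.2% of all genes) and 7 in iWAT (6.27%). In iWAT these were Hmox1 (0.33), Txnrd1 (0.31), Gpx3 (-0.43), Gsta3 (-1.09), Gstm1 (-0.57), Gstt1 (-1.18) and Mgst1 (-0.64). The 7 that joined in eWAT were Hmox1 (0.27), Gpx3 (-0.62), Gpx4 (-0.33), Sod1 (-0.38), Sod3 (-0.33), Gsta4 (-0.99) and Gstm5 (-0.41). For Gsta4 the siCEBPb log2 fold change in eWAT was 0.94 in aKO and 1.93 in Cont, a rise in both genotypes. The calls of Txnrd1 and Gstm2 in eWAT were the least stable: Txnrd1 lost its call in 10 and Gstm2 in 8 of the 12 fits that left out 1 eWAT library (edgeR adjusted p 0.0504 to 0.2).

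**Figure D4:**
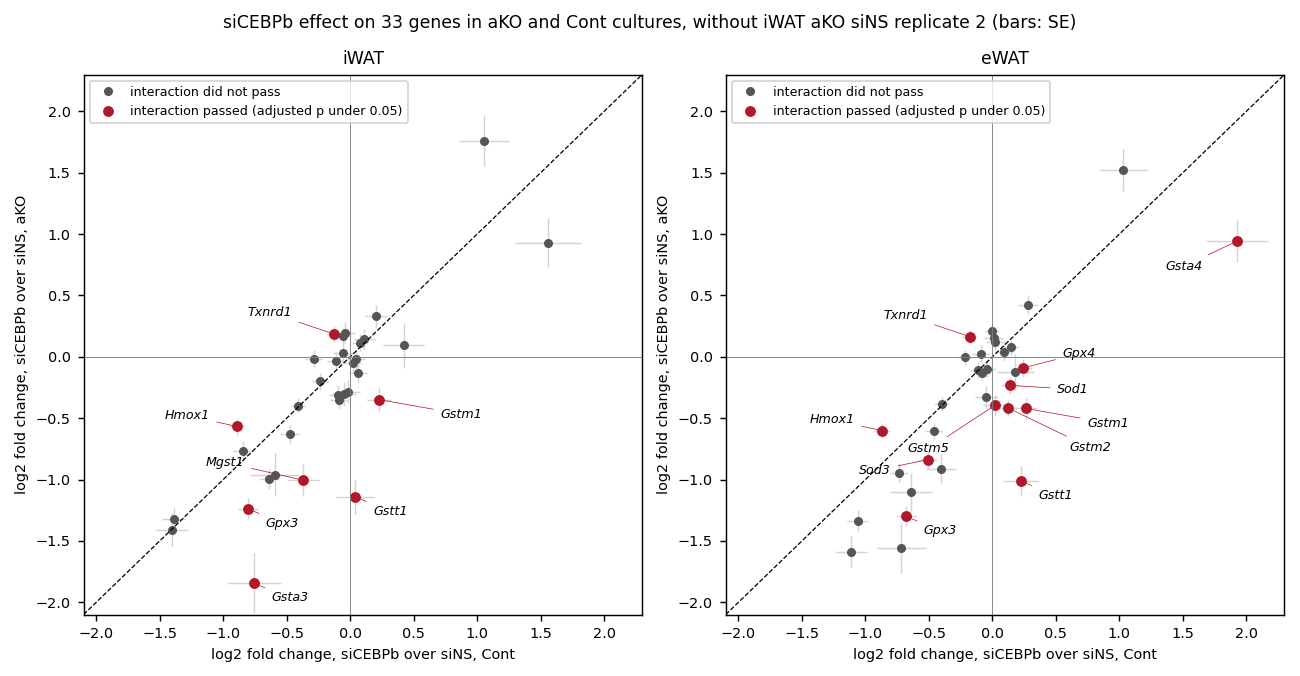
siCEBPb effect (log2 fold change over siNS) on the 33 tested genes in aKO (vertical axis) against Cont (horizontal axis) cultures of iWAT and eWAT, without iWAT aKO siNS replicate 2; grey bars are SE, the dashed line marks equal effects, and red points passed the interaction test. Gstt1 lies at -1.01 for aKO and 0.22 for Cont in eWAT, and at -1.14 for aKO and 0.041 for Cont in iWAT.

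The depots were compared in Cont siNS cultures, where the genes that passed depended on the fit. In Cont siNS cultures 0 of the 33 members passed between iWAT and eWAT in the edgeR fit (1.2% of all genes; 5 members had an unadjusted p under 0.05, as did 15.1% of all genes, and DESeq2 called 0). Same-numbered libraries of the depots deviated together, and a fit of the 6 libraries with that pairing called 11 members, 9 higher and 2 lower in iWAT (14.3% of all genes). Without the shallow library, which is in neither group, 6 passed (7.5%): Mt1 (557 ± 58.3 CPM in iWAT and 434 ± 31.8 CPM in eWAT, SD, n = 3 each), Sod1, Gpx4 and Txn1 were higher in iWAT, and Gclc (32.03 ± 3.54 CPM in iWAT and 39.2 ± 4.47 CPM in eWAT) and Keap1 were lower. No member passed a test of whether the genotype effect in siNS cultures or the siRNA effect in Cont cultures differed between depots (0.0% and 0.0% of all genes). At an unadjusted p under 0.05 there were 2 members for the genotype effect (2.81% of all genes) and 1 for the siRNA effect (2.89%), and DESeq2 called 0 of either. Without the shallow library 4 and 3 members had an unadjusted p under 0.05, with the share of all genes not counted. With same-numbered libraries of the depots paired in fits of the 12 libraries of each test, 0 members passed for the genotype effect and 0 for the siRNA effect, with 0 and 4 at an unadjusted p under 0.05.

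Other genes of the same pathways were read from a separate list of 87, of which 81 were tested. In eWAT, 16 were higher and 10 lower in aKO than in Cont siNS cultures, and in iWAT 11 were higher and 5 lower, where 20.4% and 15.2% of all genes passed. After leaving out the shallow library, 26 were higher and 11 lower in eWAT (25.8% of all genes), and 17 were higher and 8 lower in iWAT (18.4%). Ggt5, which cleaves the glutathione conjugate leukotriene C4, rose by 1.15 ± 0.14 (log2) in eWAT (187 CPM in aKO and 84.2 CPM in Cont) and 1.14 ± 0.16 in iWAT. Aox1, aldehyde oxidase, rose by 0.73 ± 0.14 and 0.83 ± 0.16, Oplah, which returns 5-oxoproline to glutamate, by 0.66 ± 0.095 and 0.72 ± 0.11, and the NRF2 target Pir by 0.75 ± 0.14 and 0.57 ± 0.15. These values are with all libraries. Without the shallow library the iWAT rises were 1.08 ± 0.17 for Ggt5 and 0.68 ± 0.11 for Oplah. In eWAT, Slc7a11, the cystine carrier that feeds glutathione synthesis, fell (-0.62 ± 0.14), as did Hpgds, a glutathione-dependent prostaglandin synthase (-0.69 ± 0.17).

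With siCEBPb, 15 of the 81 rose and 29 fell in eWAT aKO, 14 and 26 in iWAT aKO, 15 and 18 in eWAT Cont and 11 and 19 in iWAT Cont, where 35.7%, 31.3%, 26.8% and 24.3% of all genes passed. When the shallow library was left out, 17 rose and 35 fell in eWAT aKO (40.7% of all genes), 14 and 31 in iWAT aKO (34.7%), 15 and 22 in eWAT Cont (31.7%) and 14 and 25 in iWAT Cont (29.1%). Slc7a11 rose in all 4, to 27.3 CPM in eWAT aKO siCEBPb against 8.93 CPM in eWAT aKO siNS (1.61 ± 0.13), and by 0.88 ± 0.12 in eWAT Cont. Chac1, which degrades glutathione, rose with it, by 2.09 ± 0.11 in eWAT aKO and 1.63 ± 0.11 in eWAT Cont. Selenop, the plasma selenium carrier, fell, with log2 fold changes of -2.87 in eWAT aKO and -1.76 in eWAT Cont, as did the zinc carrier Slc39a14 (-1.26 in aKO and -1.69 in Cont) and glutaredoxin Glrx (-1.62 in aKO and -1.43 in Cont). Under siCEBPb, aKO against Cont cultures differed in 10 of the 81 in eWAT (6 rose, 4 fell) and 6 in iWAT (3 each way), against 10.8% and 10.0% of all genes. The counts were 15 and 10 without the shallow library (14.4% and 13.2%). Hpgds had log2 fold changes of -1.82 ± 0.25 in eWAT and -1.33 ± 0.26 in iWAT. The interaction passed for 8 in eWAT and 5 in iWAT (6.34% and 3.51% of all genes), with Aox1, Ggt5, Oplah and Slc39a14 in both. Leaving out the shallow library gave 16 and 8 (11.2% and 6.27%). Ggt5 then lost its call in iWAT (edgeR adjusted p = 0.0721). Abcc1, Sesn3, Hagh, Selenop, Aox1, Oplah and Slc39a14 then passed in both. With all libraries Oplah differed by -0.81 ± 0.14 in eWAT and -0.78 ± 0.15 in iWAT.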

How the data were processed

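The deposited files hold whole-number read counts per gene for each of 24 libraries; the authors made them with CASAVA, cutadapt 2.7, TopHat2 2.1.1 and HTSeq on GRCm38, per the submitters' processing notes, which also name edgeR. The labels' protocols give a directional poly(A) kit, and how strand was treated in counting is not given there. Gene names and exon lengths came from GENCODE M21, which named 53274 of the 53465 identifiers. The 5 lines that count unassigned reads were left out of library sizes; in the shallow library they held 95.9% of all reads.

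Genes were tested with edgeR 4.0.16 (R 4.3.3): filterByExpr with a minimum count of 10 kept 14785 genes, library sizes were TMM-scaled, and a quasi-likelihood fit with 1 mean per group over all 24 libraries gave each comparison. P-values were adjusted over all tested genes by Benjamini-Hochberg, with a threshold of 0.05, and the standard error is the size of the log2 fold change over the root of F. The fit without iWAT aKO siNS replicate 2 tested 14973 genes. CPM use TMM-scaled library sizes, and TPM use exon lengths. The script was checked on simulated counts.

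All 35 listed genes could be named, and up to 8 called genes of largest change per comparison were to be given in every library; other pathway genes were named up to 8 per comparison by size, at a mean log2 CPM of 1 or more. The members and lists were chosen with earlier results of these data known, so a pattern among them is not independent evidence. For the depots, same-numbered Cont siNS libraries deviated together, with correlations of 0.27, 0.425 and 0.312 over 8159 genes. The pairing therefore comes from the data and not from a label. The pairs ran over -0.528 to 0.541 in aKO siNS and 0.0796 to 0.235 in Cont siCEBPb. In aKO siCEBPb they were 0.748, 0.424 and 0.537. Alternatives were DESeq2 1.42.0, no filter on low counts, the compared groups alone, a replicate block, and each library left out.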

Additional observations from a re-analysis of the deposited data

Results flagged for a closer look

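The response to siCEBPb differed between the genotypes for 4 genes in eWAT and 1 in iWAT by the test of the difference itself, the siCEBPb effect in aKO minus that in Cont. The share of all genes was 6.34% in eWAT and 3.51% in iWAT. Leaving out the shallow library of iWAT aKO siNS gave 11 members (11.2% of all genes) and 7 members (6.27%). Gstt1 differed by -1.23 in eWAT and -1.15 in iWAT on the log2 scale, Gstm1 by -0.68 in eWAT, Gstm2 by -0.54 in eWAT and Txnrd1 by 0.35 in eWAT (edgeR adjusted p = 0.000314, 0.00214, 0.00519, 0.0282 and 0.0494 in that order). The Gstt1 difference passed in both depots, which are not independent. The differences of Gstm2 and Txnrd1 lost their calls in most fits without 1 eWAT library.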

How the results depend on the processing

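Among 179 counts of called members under alternatives, 152 stayed within 1.5 times the count with all libraries and 27 did not. Among 2110 values of named genes, 1847 kept direction and side of the threshold, 152 passed newly, 106 lost the call and 5 reversed. The 1847 include values called in neither fit, so they do not give the share of calls kept. With the compared groups alone, 15 members passed between aKO and Cont siNS in eWAT (against 8), 4 in iWAT (against 8), 8 in the eWAT interaction (against 4) and 3 between depots (against 0), where 26.4%, 5.33%, 10.0% and 5.14% of all genes passed. With no filter on low counts, 8 passed in the eWAT interaction, 6 in the iWAT interaction (against 1) and 2 between depots (4.19%, 3.05% and 1.8% of all genes); the cause was not tested. The replicate block gave 3 in the iWAT interaction (4.06% of all genes). In the 8 comparisons by genotype and siRNA it gave 8, 8, 9, 8, 13, 12, 19 and 16. Their order is eWAT then iWAT for siNS genotypes, siCEBPb genotypes, Cont siRNA and aKO siRNA. The shares of all genes were 20.7%, 15.7%, 11.2%, 10.3%, 26.9%, 24.5%, 35.7% and 31.2% in that order. Same-numbered libraries that differ in genotype or siRNA did not deviate together (correlations of -0.504 to 0.19). With 3 libraries a group, these values cannot tell whether such libraries share a preparation. The paired fit of the 6 Cont siNS libraries, chosen after seeing the data, called 11 between depots (14.3% of all genes). Both tests of depot differences in effect kept 0 with the depots paired, a fit also chosen after seeing the data.

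With 1 library left out, the counts ran over 7 to 16 (eWAT) and 7 to 15 (iWAT) for aKO against Cont with siNS, 3 to 8 and 2 to 9 with siCEBPb, 17 to 22 and 13 to 23 for siCEBPb against siNS in aKO, 10 to 18 and 9 to 16 in Cont, 2 to 11 and 1 to 7 for the interaction, and 0 to 6 between depots. The highest of each was reached without iWAT aKO siNS replicate 2. Shares of all genes in these fits ran, in the same order, over 13.9% to 25.8% and 9.52% to 18.4% with siNS. They ran over 7.29% to 14.4% and 6.25% to 13.2% with siCEBPb. For the siRNA they were 28.6% to 40.7% and 23.9% to 34.7% in aKO, and 20.6% to 31.7% and 18.7% to 29.1% in Cont. For the interaction they were 2.89% to 11.2% and 1.93% to 6.27%, and between depots 0.153% to 7.5%. The low counts with siCEBPb came in eWAT without replicate 1 of aKO siCEBPb (3, with 7.29% of all genes) or of Cont siCEBPb (4, with 7.57%). In iWAT they came without aKO siCEBPb replicate 1 (2, with 6.25%) or Cont siCEBPb replicate 3 (3, with 6.71%). The count was 2 in the iWAT interaction without iWAT aKO siCEBPb replicate 3 (3.74% of all genes). It was 1 between depots without iWAT Cont siNS replicate 1 (1.35%). In the eWAT interaction it was 2 without any 1 of 7 libraries (2.89% to 4.46%). These were aKO siCEBPb replicate 1, aKO siNS replicates 2 and 3, Cont siCEBPb replicates 1 and 3, and Cont siNS replicates 1 and 3. Both tests of depot differences in effect gave 0 throughout. Gpx1 in iWAT aKO with siCEBPb against siNS reversed, its log2 fold change of -0.067 (-0.20 without the shallow library) becoming 0.053 with the groups alone, 0.034 with DESeq2, 0.037 without iWAT aKO siNS replicate 1 and 0.042 without replicate 3; Gpx3 in the iWAT interaction (-0.17, and -0.43 without the shallow library) became 0.0065 without iWAT aKO siNS replicate 1. Depth limits Gsta1 and Gsta2, and in the shallow library Nqo1 and Gsta4 rest on 1 read each.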
